A study of Mus musculus with 16 samples.

Results

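Livers from mice labelled L-Dnm1l KO, a liver-specific knockout of the mitochondrial fission protein DRP1, were compared with livers from wild-type mice, both on control diet. The comparison holds 8 of the 16 libraries of the series, 4 labelled KO and 4 labelled WT, chosen by their labels alone. It covers every gene with a mean of at least 10 normalised reads over the 16 libraries, which is 13256 of 27288 genes. All mice were of strain C57BL/6 and 8 to 10 weeks old, and the wild-type mice were described as paired with the knockouts. The labels name neither the promoter of the recombinase nor the exons removed, and no other allele or agent is listed for these groups. The other 8 libraries came from KO and wild-type livers after a Gao-Binge protocol, chronic ethanol feeding that ends with a binge. They entered the shared estimate of the spread and the test of whether the genotype effect differed between diets. Whether every library is from another mouse is not stated, and the p-values then measure only the spread between libraries, which may be technical.

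DRP1, encoded by Dnm1l, is a dynamin-family GTPase that is recruited to the outer mitochondrial membrane and constricts it until the organelle divides. Without it mitochondria elongate or swell, and in hepatocytes, which are rich in mitochondria, this alters fuel use and the handling of damaged organelles. Several genes below belong to the interferon response. In that response, DNA or RNA in the cytosol or endosome is detected by sensors that induce interferons, and interferon receptors then act through JAK kinases and the transcription factors they activate on many target genes that block viral replication and raise antigen presentation. Other genes below belong to the NRF2 response, in which a transcription factor set free by electrophiles and oxidants raises enzymes of detoxification.

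The 8 libraries held 11425136 to 13141944 reads assigned to genes, and all 19 hepatocyte markers were measured in them. Dnm1l itself (ENSMUSG00000022789, chromosome 16, 16312230 to 16358959 in GRCm38) had 666, 654, 539 and 709 normalised reads in the libraries labelled KO and 707, 581, 686 and 677 in the wild-type libraries. The groups overlapped (log2 -0.05, limma adjusted p = 0.825, exact two-sided permutation p = 0.571, where the smallest possible is 0.0286), and without KO library 3 the sign turned (log2 0.03). A total per gene does not show which exons were read, so it is no check of the genotype, and the directions below go by the labels.

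For orientation, promoters of 3 interferon-responsive genes and 2 NRF2 targets that were higher in the libraries labelled KO are shown. Many genes below are on lists of these 2 responses, and the promoters were picked because each holds the core motif of its own response. The sequences are from RefSeq, build GRCm38.p6, 250 bases before to 50 after the transcript start, written 5′ to 3′ on the gene's strand. Capitals in the first 3 mark the letters GAAANNGAAA on either strand, the core of the interferon-stimulated response element, with overlapping matches joined. Capitals in the last 2 mark TGACNNNGC on either strand, the core of the antioxidant response element bound by NRF2. Isg15 lies at chr4:156200769-156201068 on the minus strand, Ifit1 at chr19:34640639-34640938 on the plus strand and Rsad2 at chr12:26456403-26456702 on the minus strand. Txnrd1 lies at chr10:82858956-82859255 and Srxn1 at chr2:152105274-152105573, both on the plus strand, and of the 3 Txnrd1 promoters on record the one with a match is shown.
Isg15: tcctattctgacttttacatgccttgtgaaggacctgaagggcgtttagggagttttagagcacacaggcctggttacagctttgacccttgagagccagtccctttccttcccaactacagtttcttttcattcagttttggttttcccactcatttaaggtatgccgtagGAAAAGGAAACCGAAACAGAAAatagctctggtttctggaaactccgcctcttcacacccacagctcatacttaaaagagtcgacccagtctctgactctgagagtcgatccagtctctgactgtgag
Ifit1: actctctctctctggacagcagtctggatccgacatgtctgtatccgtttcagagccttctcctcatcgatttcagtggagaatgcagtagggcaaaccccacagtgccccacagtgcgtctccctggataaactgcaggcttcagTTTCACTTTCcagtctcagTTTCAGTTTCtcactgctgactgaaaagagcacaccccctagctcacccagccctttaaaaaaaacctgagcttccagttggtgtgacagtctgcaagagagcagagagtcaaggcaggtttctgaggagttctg
Rsad2: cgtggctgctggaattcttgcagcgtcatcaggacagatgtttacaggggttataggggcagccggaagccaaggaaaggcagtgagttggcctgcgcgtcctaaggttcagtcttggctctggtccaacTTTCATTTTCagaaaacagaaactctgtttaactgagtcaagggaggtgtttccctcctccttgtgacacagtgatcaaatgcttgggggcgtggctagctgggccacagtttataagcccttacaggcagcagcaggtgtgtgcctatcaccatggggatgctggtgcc
Txnrd1: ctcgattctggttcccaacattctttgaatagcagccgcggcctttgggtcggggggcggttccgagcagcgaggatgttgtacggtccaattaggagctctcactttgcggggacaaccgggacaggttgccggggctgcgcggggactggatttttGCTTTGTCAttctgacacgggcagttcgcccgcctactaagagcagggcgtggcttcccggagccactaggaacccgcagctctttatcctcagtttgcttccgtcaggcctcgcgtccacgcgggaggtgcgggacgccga
Srxn1: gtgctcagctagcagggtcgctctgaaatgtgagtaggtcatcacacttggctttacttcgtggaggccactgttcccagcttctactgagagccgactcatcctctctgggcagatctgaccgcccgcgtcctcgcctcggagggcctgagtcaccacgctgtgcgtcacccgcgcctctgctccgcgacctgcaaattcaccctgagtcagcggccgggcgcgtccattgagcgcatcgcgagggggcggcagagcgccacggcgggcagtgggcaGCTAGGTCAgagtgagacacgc
Isg15 held 3 overlapping matches, Ifit1 2, Rsad2 1, Txnrd1 1 and Srxn1 1, while Oasl2, Irf7, Nqo1 and Cbr3 held 0 matches of their motif in the same window. GAAANNGAAA was held by 1079 of 27025 genes with a promoter on record (3.99%), and by 375 of the 9760 of them that were tested (3.84%). The share was 75 of 667 genes (11.2%) among those higher in the libraries labelled KO and 18 of 512 (3.52%) among those lower. It was 4 of 6 OAS genes, 3 of 4 IFIT genes, 1 of 4 genes of ISG15 and its conjugation, 8 of 20 other antiviral effectors, 9 of 10 interferon-inducible GTPases, 4 of 9 PARP and Schlafen genes and 4 of 14 class I genes with a promoter on record. TGACNNNGC was held by 1639 of the 9760 tested genes (16.8%), by 105 of the 667 higher genes (15.7%), by 74 of the 512 lower genes (14.5%) and by 10 of 26 NRF2 targets (38.5%). A match is a run of letters and shows no binding.

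In the libraries labelled KO, many genes of the interferon response, of antigen presentation and of detoxification were higher, and some genes of cytochromes P450, fatty acid desaturation and growth hormone signalling were lower. By the test below, 22 of 25 antiviral effectors, 15 of 20 class I genes and 14 of 30 NRF2 targets rose. Lower were 9 of 31 Cyp1a and Cyp2 genes, 6 of 13 desaturases and elongases and 9 of 35 genes of the growth hormone axis. In bulk tissue more cells of a type and more RNA per cell cannot be told apart. At a limma adjusted p under 0.05, 849 of the 13256 genes (6.4%) rose in the libraries labelled KO and 695 (5.24%) fell, together 11.6%. Of those higher, 421 changed by at least 2-fold and 118 by at least 4-fold, and of those lower, 160 and 24, and the median log2 fold change over all genes was -0.01. All 4 libraries labelled KO lay above all 4 wild-type libraries for 8.68% of genes and below them for 8.72%. Without wild-type library 4 the call count was 922, with 547 higher and 375 lower, and without wild-type library 1 the lower count was 420; of the 1544 called genes 753 kept the call in each fit that left out 1 control-diet library, and none turned its sign. Each gene described below as higher or lower kept its call in those fits and under every other alternative that tested it, except where libraries or settings are named. Every adjusted p below is from limma over the 13256 genes.

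**Figure D1:**
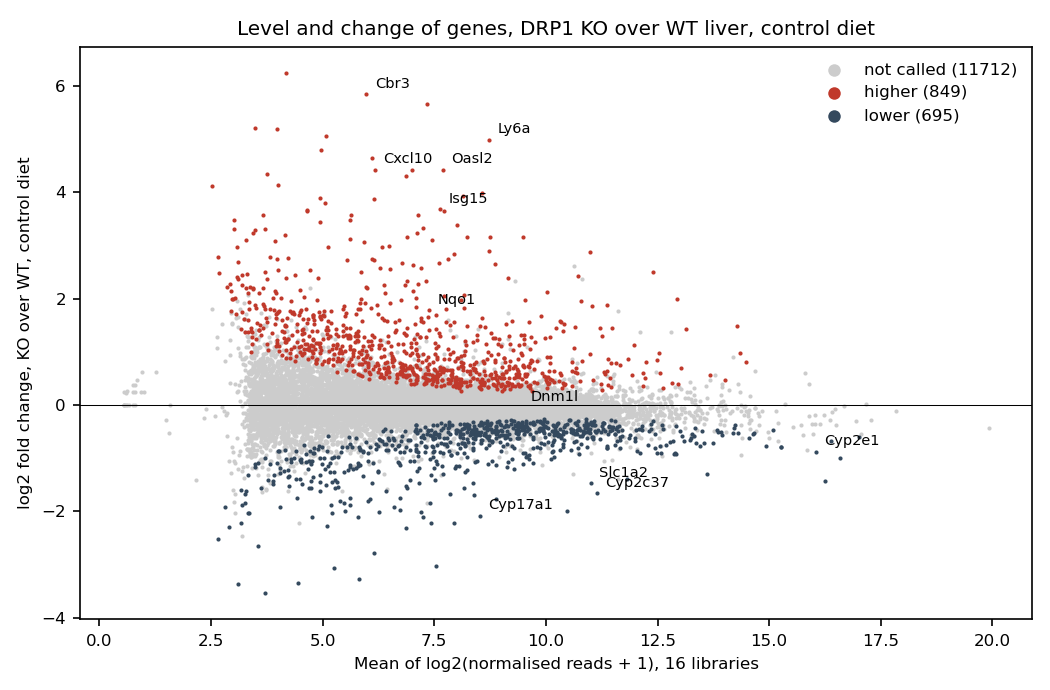
Mean level (log2 of normalised reads plus 1, mean over the 16 libraries) against the log2 fold change of the libraries labelled KO over the wild-type libraries on control diet, 1 point for each of 13256 genes. Called genes are coloured (849 higher, 695 lower), and Ly6a, Oasl2 and Isg15 lie among the large rises, while Cyp2c37 and Cyp17a1 lie among the large falls.

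Most antiviral effectors induced by interferon rose. All 8 measured OAS genes, a family whose active enzymes make the oligoadenylate messenger that activates RNase L, were higher. Their median log2 fold change was 2.94 against -0.01 over all genes. All 4 measured IFIT genes, which bind foreign RNA ends, were higher with a median of 3.62. Another 2 listed were under the mean of 10 normalised reads. All 5 genes of ISG15 and its conjugation were higher too, with a median of 1.57. Of 25 other antiviral effectors 22 rose and 0 fell, with a median of 1.86. These shares stand beside a background of 6.4% higher. Oasl2, an OAS-like protein (ENSMUSG00000029561, chromosome 5, 114896936 to 114912234), had 1271, 1226, 1192 and 2249 normalised reads in the libraries labelled KO and 64.1, 86.5, 51.0 and 65.4 in the wild-type libraries. Every library labelled KO held over 10 times the level of any wild-type library (log2 4.43 ± 0.23 SE, limma adjusted p = 2.05e-09). Ifit1, which binds RNA that lacks the host's cap methylation, had 2001, 1534, 1398 and 1513 normalised reads in KO-labelled livers and 85.8, 77.5, 119 and 144 in wild-type livers. Rsad2, the enzyme viperin, which makes a chain-terminating nucleotide, had 1427, 1038, 1538 and 1091 normalised reads in KO-labelled livers and 72.0, 72.6, 79.4 and 91.3 in wild-type livers. In neither gene did the groups overlap, and the folds were 15.3 and 15.8. Isg15 (ENSMUSG00000035692, chromosome 4, 156199424 to 156200818), the ubiquitin-like modifier itself, had 1277, 935, 938 and 1224 normalised reads in KO-labelled livers and 89.7, 74.6, 91.9 and 79.9 in wild-type livers. Its groups did not overlap either, at 12.8-fold. Its ligation needs the activating enzyme Uba7 and the conjugating enzyme Ube2l6, which rose 2.57-fold and 1.96-fold, and the protease Usp18, which removes it, rose 8.94-fold. The smaller rises among the antiviral effectors included Ifitm3 (1.80-fold), which blocks viral entry, and Zc3hav1 (1.45-fold), which binds viral RNA. The 3 antiviral genes that did not pass were Ifitm1, Ifitm2 and Ifi30, with log2 fold changes of 0.05, 0.18 and 0.55 (limma adjusted p = 0.932, 0.674 and 0.0563). The OAS and IFIT families include near-identical copies, so the division of reads among Oas1a and Oas1g or Ifit3 and Ifit3b is uncertain.

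**Figure D2:**
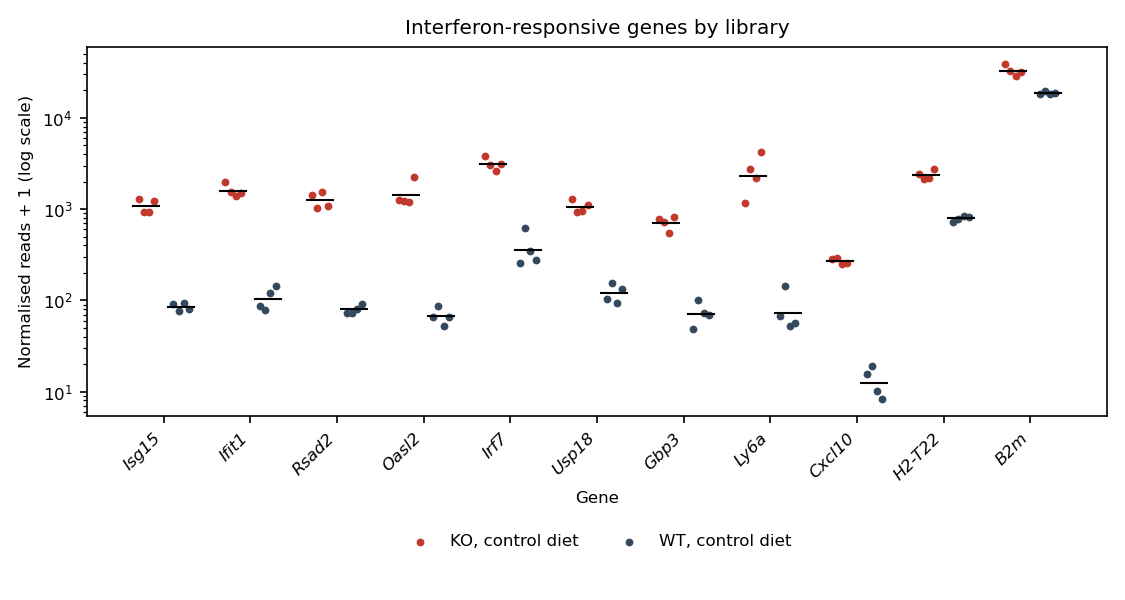
Normalised reads plus 1 (log scale) of 11 interferon-responsive genes in each control-diet library, the 4 libraries labelled KO to the left of the 4 wild-type libraries for each gene, with a bar at the mean of the log values. The groups do not overlap in any of the 11 genes. Among them the log2 fold change is largest for Ly6a (4.99) and smallest for B2m (0.81).

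The interferon-inducible GTPases, which attack the vacuoles of intracellular pathogens, rose in 18 of 18 measured genes, with a median log2 fold change of 1.71. The background over all genes was 6.4% higher and 5.24% lower. Gbp3 had 769.8, 721, 546 and 811 normalised reads in the libraries labelled KO and 47.3, 99.4, 71.5 and 67.5 in the wild-type libraries. The groups lay far apart (log2 3.33 ± 0.31 SE, limma adjusted p = 1.76e-06). Igtp had 1972, 1938, 1284 and 1536 normalised reads in KO-labelled livers and 253, 336, 347 and 338 in wild-type livers. Irgm1, a regulator of the family, had 2052, 2189, 1675 and 2204 normalised reads in KO-labelled livers and 552, 595, 672 and 715 in wild-type livers. Wild-type livers were below every KO-labelled liver in both genes. The call of Iigp1 was lost without KO library 2 or 4 or without any 1 of the wild-type libraries. That of Tgtp2 was lost without KO library 2 or 4, without any 1 of wild-type libraries 1, 2 and 3, without a filter or with only the control-diet libraries. Of 10 AIM2-like receptor genes, which bind DNA, 9 rose and 0 fell, among them Ifi204 (2.67-fold) and Ifi213 (5.23-fold). Of 12 PARP and Schlafen genes, ADP-ribosyl transferases and restriction factors, 11 rose, with Slfn8 at 11.1-fold and Parp14 at 2.50-fold. All 5 measured Ly6 surface antigens rose, and 4 others listed were under the filter of 10 normalised reads. That filter took the mean over all 16 libraries, so low genes could pass it through libraries where they were high. The medians of these 3 lists ranged from 1.46 to 2.50. Ly6a, known as Sca-1 on stem and progenitor cells (ENSMUSG00000075602, chromosome 15, 74994877 to 74998031), had 1154, 2753, 2185 and 4186 normalised reads in the libraries labelled KO and 66.1, 144, 51.0 and 56.1 in the wild-type libraries. Wild-type library 2 was the highest of its group and still below every library labelled KO (log2 4.99 ± 0.34 SE, limma adjusted p = 6.15e-08). Ly6e, which alters the entry of several viruses, had 16979.8, 13055, 11969 and 13626 normalised reads in KO-labelled livers and 2683, 2713, 2279 and 2149.7 in wild-type livers. It was the most abundant of the 5 and its groups lay tightly apart (log2 2.50 ± 0.13 SE, limma adjusted p = 3.15e-09). The call of Ly6c2, a monocyte antigen with a close copy in Ly6c1, was lost without KO library 4 or wild-type library 4.

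Of 10 sensors of nucleic acids 6 rose and 1 fell, beside backgrounds of 6.4% higher and 5.24% lower over all genes. Those that rose were the cytosolic RNA sensors Ddx58 (1.85-fold) and Ifih1 (2.37-fold), their regulator Dhx58 (3.51-fold), Zbp1 (5.96-fold), which binds Z-form nucleic acids, and the endosomal RNA receptors Tlr3 (1.68-fold) and Tlr7. The Tlr7 call was lost without any 1 of KO libraries 2, 3 and 4 or wild-type libraries 1, 3 and 4, without a filter, without the trend and with only the control-diet libraries. Mavs, the adaptor on the outer mitochondrial membrane through which the RNA sensors signal, had 962, 999, 1103 and 958 normalised reads in the libraries labelled KO and 1265, 1227, 1316 and 1272 in the wild-type libraries. It was the member that fell, by a small margin without overlap (log2 -0.34 ± 0.08 SE, limma adjusted p = 0.00896). Of 21 listed interferon genes 18 were absent from the deposited counts under the symbols used, so their level could not be assessed. None of the other 3 reached the filter of 10 normalised reads. Summed over 4 libraries, Ifnb1 had 4 reads in the libraries labelled KO and 0 in wild type, Ifng had 3 in the libraries labelled KO and 0 in wild type, and Ifnk had 4 in the libraries labelled KO and 8 in wild type. A count of 0 allows up to 3 reads, so no fold is given. Of 24 receptors, kinases and transcription factors of interferon signalling 5 rose and 1 fell, and 3 rose without KO library 4 or any 1 of wild-type libraries 1, 3 and 4. Irf9, a transcription factor of the interferon response, rose 1.75-fold. Irf7, which drives interferon genes (ENSMUSG00000025498, chromosome 7, 141262706 to 141266481), had 3846, 3071, 2623 and 3136 normalised reads in KO-labelled livers and 255, 615, 349 and 278 in wild-type livers. Wild-type library 2 was the highest of its group, and the groups did not overlap (log2 3.15 ± 0.23 SE, limma adjusted p = 8.25e-08).

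Genes of antigen presentation by MHC class I rose in 15 of 20 measured members and fell in 0, with a median log2 fold change of 0.95. Over all genes the shares were 6.4% higher and 5.24% lower. H2-D1, a classical heavy chain, had 14049, 14016, 13937 and 15439 normalised reads in the libraries labelled KO and 4879.7, 5914, 5225 and 5232 in the wild-type libraries. H2-T22, a nonclassical heavy chain, had 2444, 2155, 2218 and 2743 normalised reads in KO-labelled livers and 716, 786, 843 and 823 in wild-type livers. In both genes every KO-labelled liver was above every wild-type liver, at 2.71-fold and 3.01-fold. B2m, the light chain that all of them share (ENSMUSG00000060802, chromosome 2, 122147686 to 122153083), averaged 32935 ± 4412 normalised reads in the libraries labelled KO and 18649.8 ± 571 in the wild-type libraries (SD, n = 4 each), a rise under 2-fold (log2 0.81 ± 0.12 SE, limma adjusted p = 0.000237). The peptide transporter subunits Tap1 and Tap2 rose 2.40-fold and 1.89-fold. The heavy chain genes are close copies, and how their reads were divided is uncertain. Of the 5 immunoproteasome genes, whose subunits cut peptides for class I, 3 rose, with Psmb9 at 2.95-fold and Psmb8 at 2.80-fold. The count was 5 without KO library 3. Of 33 constitutive proteasome genes 8 rose, and the count was 4 or 5 without any 1 of KO libraries 1, 2 and 3 or wild-type libraries 1, 2 and 4. Psma1 of the core and Psmc2 and Psmc5 of the cap kept their calls throughout (1.33-fold, 1.31-fold and 1.39-fold). Class II genes rose for 3 of 7. That count was 0 without any 1 of KO libraries 1 and 2 or wild-type libraries 1, 3 and 4, 1 without KO library 4 and 6 without KO library 3.

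Of 15 measured chemokine genes 5 rose and 2 fell, beside backgrounds of 6.4% higher and 5.24% lower over all genes. The interferon-induced Cxcl10 and Cxcl9 were among the rises. Cxcl10 (ENSMUSG00000034855, chromosome 5, 92346638 to 92348889), which attracts T and NK cells through CXCR3, had 286, 289, 249 and 253 normalised reads in the libraries labelled KO and 14.8, 17.9, 9.07 and 7.27 in the wild-type libraries. The KO-labelled livers lay close together and far above the wild-type livers (log2 4.42 ± 0.39 SE, limma adjusted p = 1.15e-06). Cxcl9, a ligand of the same receptor, had 639, 578, 327 and 629 normalised reads in KO-labelled livers and 83.8, 149, 60.1 and 64.4 in wild-type livers. Ccl2, which recruits monocytes, rose 5.14-fold, and Ccl5, which lymphocytes also make, 12.6-fold. Of 15 NF-kappaB feedback and cytokine genes 8 rose and 0 fell, including the inhibitor Tnfaip3 (2.18-fold), the subunit Relb (2.97-fold), the adhesion molecule Vcam1 (2.43-fold) and the receptor Tlr2 (3.49-fold). Of 26 cell death genes 7 rose and 0 fell. Mlkl, the executor of necroptosis, had 233, 194, 290.04 and 305 normalised reads in KO-labelled livers and 90.7, 60.6, 86.2 and 48.8 in wild-type livers. It was higher in every KO-labelled liver (log2 1.84 ± 0.21 SE, limma adjusted p = 1.51e-05). Il18bp, which neutralises IL-18, rose 2.41-fold, Gsdmd, the pore of pyroptosis, 1.41-fold, and the apoptosis effector Bak1 1.49-fold. Casp1, the inflammasome protease, was 2.62-fold higher with overlapping groups. The medians of the chemokine, NF-kappaB and cell death lists ranged from 0.37 to 0.95.

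Markers of immune cells moved with these genes. The part of such cells in the results above was not tested. Of 20 measured monocyte and macrophage markers 12 rose and 0 fell, beside backgrounds of 6.4% higher and 5.24% lower over all genes. Their mean log2 level was 6.32, 6.59, 6.34 and 7.0 in the libraries labelled KO and 4.95, 5.74, 5.21 and 4.97 in the wild-type libraries, without overlap. That mean leaves out 4 listed markers under the filter, which low genes could pass through the libraries where they were high. Summed over 4 libraries, 3 of these had more reads in the libraries labelled KO. Itgam had fewer, 15 against 23 in wild type. The summed level of all 24 listed did overlap, at 18044 to 32199 normalised reads in the libraries labelled KO and 24243 to 31438 in wild type. Fn1, which hepatocytes also make, was most of that sum and averaged 17106 ± 5896 normalised reads in the libraries labelled KO and 25240.4 ± 2745 in the wild-type libraries (SD, n = 4 each). It fell by the test without KO library 3 (limma adjusted p = 0.032). Mpeg1, the pore-forming perforin-2 of phagocytes, had 2137, 3274, 4831 and 4623 normalised reads in the libraries labelled KO and 565, 1313, 926 and 634 in the wild-type libraries. Gpnmb, a glycoprotein of lipid-laden macrophages, had 20.7, 20.8, 29.5 and 54.0 normalised reads in KO-labelled livers and 0, 4.97, 3.40 and 2.08 in wild-type livers. Both were higher in every KO-labelled liver, and in Gpnmb wild-type library 1 was at 0. Fcgr1, the high-affinity IgG receptor, rose 2.78-fold and Trem2, a lipid receptor, 4.58-fold. Of 17 Kupffer cell markers 7 rose (41.2%) and 1 fell (5.88%, near the background). The summed level of all 18 listed was 11162, 14228, 15503 and 15881 normalised reads in the libraries labelled KO and 10503, 13797, 9678 and 9998 in wild type. Wild-type library 2 lay inside the range of the libraries labelled KO. The complement subunits C1qa, C1qb and C1qc rose 2.35-fold, 2.28-fold and 2.03-fold, and the scavenger receptor Marco rose 5.85-fold. Clec4f, a lectin of resident Kupffer cells, averaged 1300.3 ± 119 normalised reads in the libraries labelled KO and 724 ± 345 in the wild-type libraries (SD, n = 4 each), a rise of 1.93-fold with overlapping groups. Cd163, another scavenger receptor, fell (log2 -2.11), and its call was lost without KO library 2, without wild-type library 2 or with only the control-diet libraries.

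Lymphocyte transcripts were few. The counts in this paragraph stand beside backgrounds of 6.4% higher and 5.24% lower over all genes. The 3 measured NK and cytotoxic genes, Klrk1, Gzma and Ccl5, all rose, and the other 15 of 18 listed were under the filter. The filter took the mean over all 16 libraries, so genes this low could pass it through the libraries where they were high. The count of 3 of 3 is therefore no independent result about the list. The summed level of all 18 listed was 172, 341, 158 and 249 normalised reads in the libraries labelled KO and 26.6, 77.5, 32.9 and 33.2 in wild type. None of 5 measured T cell markers passed the test, and the other 15 of 20 listed were under the filter. Summed over 4 libraries these 15 had 559 reads in the libraries labelled KO and 217 in wild type, with more reads in the KO-labelled sum for 14 of them. Cd8a had 71 reads in the libraries labelled KO and 12 in wild type, and no test was made of such low counts. None of 3 measured neutrophil markers, with 11 under the filter, 20 sinusoidal endothelial markers, 9 pancreas, 5 red cell or 3 fat markers passed the test. The endothelial median log2 fold change was 0.09 and that of 18 stellate cell markers 0.07. Reln, a secreted glycoprotein, was the 1 stellate marker that fell (fold 0.683). Of 6 B and plasma cell genes 1, the immunoglobulin light chain Igkc, rose 2.94-fold. Of 35 matrix and fibrosis genes 7 rose and 0 fell, and 3 rose without KO library 4 or wild-type library 4. The basement membrane collagen Col4a1 had 355, 395, 629 and 534 normalised reads in KO-labelled livers and 210.02, 264, 226 and 174 in wild-type livers. Lgals3, a galectin of activated macrophages, had 148, 116, 92.1 and 123 normalised reads in KO-labelled livers and 28.6, 53.7, 28.4 and 19.7 in wild-type livers. Neither gene's groups overlapped (2.15-fold and 3.79-fold).

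**Figure D3:**
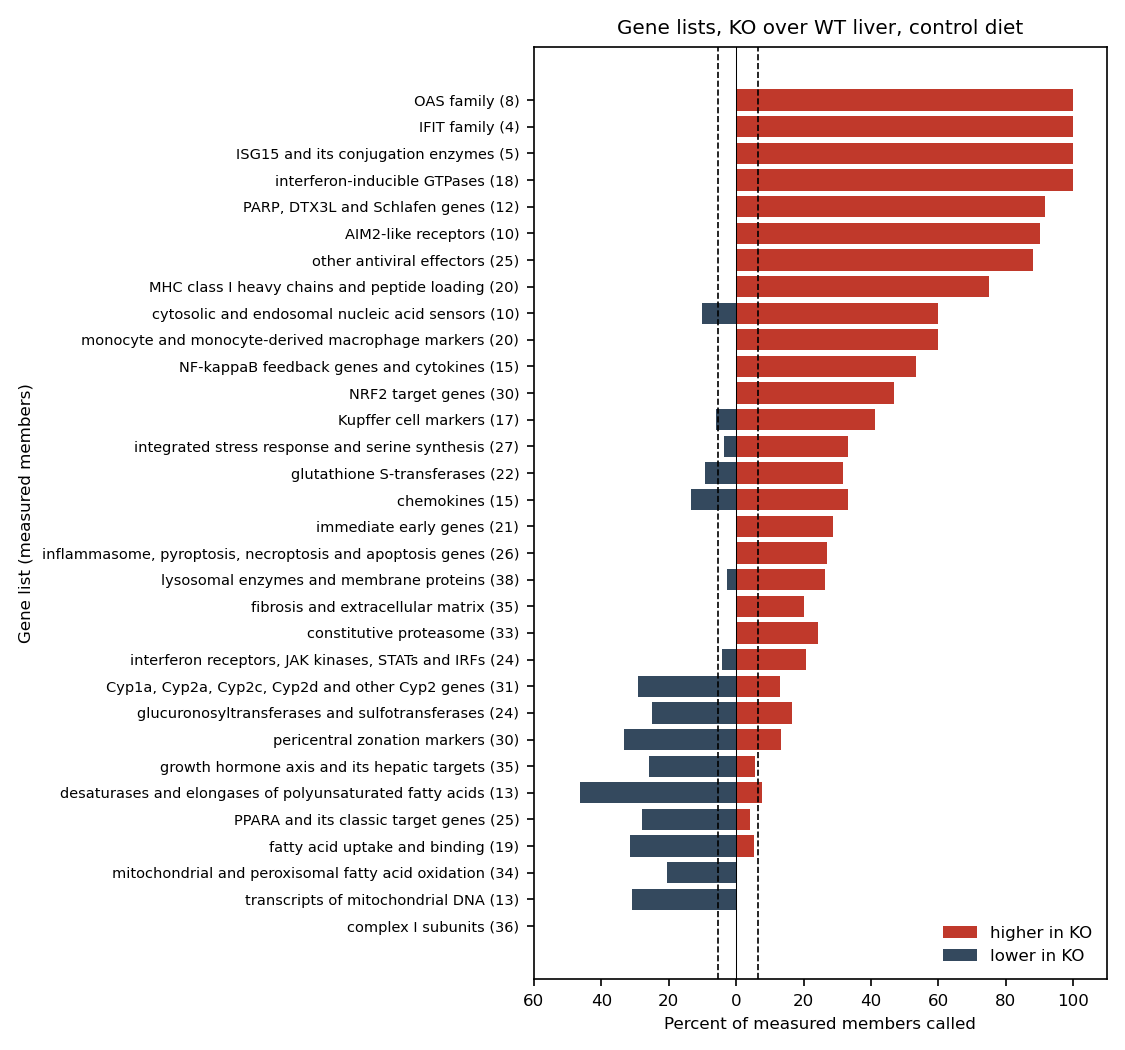
Percent of the measured members of 32 gene lists that were higher (right of 0) or lower (left of 0) in the libraries labelled KO at a limma adjusted p under 0.05, with the number of measured members beside each name. Dashed lines mark the background of 6.4% higher and 5.24% lower over all 13256 genes. The 32 are a selection of the lists examined. Some lists not drawn called few members, such as nuclear-encoded subunits of complexes II to V (0 of 39) and mitochondrial ribosomal proteins (1 of 75). Others called many, such as the Ly6 surface antigens (5 of 5). The OAS, IFIT, ISG15, antiviral and GTPase lists reach 88% to 100% higher, and the list of desaturases and elongases has the largest share lower, 46.2%.

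Genes of detoxification formed another set of rises. Of 30 measured NRF2 targets 14 rose and 0 fell, beside the 6.4% background, with a median log2 fold change of 0.54. Cbr3, a carbonyl reductase (ENSMUSG00000022947, chromosome 16, 93683215 to 93690990), had 705, 398, 66.3 and 183 normalised reads in the libraries labelled KO and 1.97, 6.96, 3.40 and 2.08 in the wild-type libraries. All 4 libraries labelled KO were above the wild-type ones but spread widely, with KO library 3 the lowest and KO library 1 the highest (log2 5.84 ± 0.55 SE, limma adjusted p = 2.35e-06). Nqo1, a quinone reductase (ENSMUSG00000003849, chromosome 8, 107388225 to 107403206), had 287, 179.9, 196 and 205 normalised reads in KO-labelled livers and 72.0, 57.7, 66.9 and 50.9 in wild-type livers. Srxn1, which repairs overoxidised peroxiredoxins, had 2232, 1670.2, 1908 and 2176 normalised reads in KO-labelled livers and 502, 534, 549 and 473 in wild-type livers. In both the groups were well apart (3.44-fold and 3.86-fold). Slc7a11, which imports cystine for glutathione synthesis, had 54.9, 25.6, 60.8 and 38.7 normalised reads in KO-labelled livers and 0, 0, 0 and 1.04 in wild-type livers. It was detected in a single wild-type library. Ugdh, which makes the UDP-glucuronate used in conjugation, averaged 4403 ± 350.1 normalised reads in the libraries labelled KO and 1626 ± 241 in the wild-type libraries (SD, n = 4 each). Smaller rises were those of Txnrd1 (1.56-fold), thioredoxin reductase, Gsr (1.41-fold), glutathione reductase, and Ephx1 (1.96-fold), the microsomal epoxide hydrolase. Of 22 glutathione transferase genes 7 rose and 2 fell (median log2 fold change 0.02). Gsta2 had 440.3, 287, 137 and 314 normalised reads in the libraries labelled KO and 77.9, 23.9, 38.6 and 34.3 in the wild-type libraries. Gstm3 had 2914, 1151, 627 and 1032 normalised reads in KO-labelled livers and 341, 221, 231 and 151 in wild-type livers. Gstm1, the most abundant of the 7, had 39471, 23956, 10221 and 13790.3 normalised reads in KO-labelled livers and 8393, 6145, 6512 and 6446 in wild-type livers. In these 3 genes the groups did not overlap, KO library 1 was the highest and KO library 3 the lowest of the libraries labelled KO. The transferases are close copies, and the division of reads between members is uncertain. Of 18 other antioxidant enzymes 1 rose and 1 fell.

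Stress programmes that share targets with one another were raised in part, beside the background of 6.4% higher. Of 27 genes of the integrated stress response and serine synthesis 9 rose and 1, Vldlr, fell. Atf3, an early stress transcription factor, had 297, 137, 305 and 151 normalised reads in the libraries labelled KO and 16.8, 10.9, 31.8 and 10.4 in the wild-type libraries. The groups did not overlap (log2 3.64 ± 0.63 SE, limma adjusted p = 0.00134). Nupr1, a chromatin protein of stressed cells, had 168, 78.6, 93.0 and 60.3 normalised reads in KO-labelled livers and 8.87, 14.9, 7.94 and 10.4 in wild-type livers. It was higher in every KO-labelled liver, and KO library 1 was the highest (log2 3.06 ± 0.26 SE, limma adjusted p = 6.8e-07). Ddit3, the factor CHOP, rose 3.53-fold and Psat1, of serine synthesis, 2.96-fold. The mitokine genes did not pass the test. Gdf15 averaged 173 ± 156 normalised reads in the libraries labelled KO and 55.1 ± 40.6 in the wild-type libraries (SD, n = 4 each), a change of log2 1.59 ± 0.56 SE, limma adjusted p = 0.0751. It passed without wild-type library 1 (limma adjusted p = 0.0373) and with the replicate block (0.0388). Fgf21 averaged 158 ± 84.3 normalised reads in the libraries labelled KO and 72.5 ± 13.2 in the wild-type libraries (SD, n = 4 each), a change of log2 0.96 ± 0.65 SE, limma adjusted p = 0.383. The SD of both was larger in the libraries labelled KO. Of 22 p53 targets 6 rose, and Tap1 is on this list as well as on that of class I genes. Cdkn1a, which stops the cell cycle, had 128, 65.3, 138 and 119.8 normalised reads in KO-labelled livers and 18.7, 7.95, 20.4 and 13.5 in wild-type livers. The p53 ligase Mdm2 rose 1.54-fold and Eda2r, a death receptor, 4.05-fold. Of 21 immediate early genes 6 rose, with a median log2 fold change of 0.81. Myc had 193, 108, 205 and 139 normalised reads in KO-labelled livers and 19.7, 52.7, 40.8 and 22.8 in wild-type livers. Ier5, another of them, rose 2.60-fold. Of 28 cell cycle genes 5 rose, but the count was 1 or 2 without KO library 4 or any 1 of wild-type libraries 2, 3 and 4, 10 without wild-type library 1 and 12 without KO library 3. Of 22 genes of the endoplasmic reticulum unfolded protein response 3 rose, and 1 or 0 did without any 1 of KO libraries 1, 2 and 3 or wild-type libraries 1 and 4. Of 17 heat shock genes 3 rose, 1 without any 1 of KO library 2 and wild-type libraries 2 and 4, and Hspb1 (2.54-fold) kept its call throughout. The medians of the integrated stress, p53, cell cycle, unfolded protein and heat shock lists ranged from 0.14 to 0.84.

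Cytochromes P450 of drug and steroid metabolism moved in both directions. Of 31 measured Cyp1a and Cyp2 genes 4 rose and 9 fell, beside backgrounds of 6.4% and 5.24%. The rises were in Cyp2a4, Cyp2a5, Cyp2a12 and Cyp2f2. Without wild-type library 2 there were 2, and Cyp2a12 was also lost without KO library 2, without wild-type library 1 or without a filter, and Cyp2f2 without wild-type library 3 or with only the control-diet libraries. Cyp2a5, a coumarin hydroxylase (ENSMUSG00000005547, chromosome 7, 26835305 to 26843548), had 15249, 11075, 5403 and 8976 normalised reads in the libraries labelled KO and 2056, 2343, 2674 and 2553 in the wild-type libraries. All 4 libraries labelled KO were above the wild-type ones (log2 1.99 ± 0.24 SE, limma adjusted p = 2.79e-05), though its near copy Cyp2a4 makes the division of reads uncertain. Cyp2b10, the usual target of the receptor CAR, had 77.7, 26.5, 41.4 and 23.4 normalised reads in KO-labelled livers and 10.8, 1.99, 2.27 and 5.19 in wild-type livers. The groups did not overlap (log2 2.90 ± 0.42 SE, limma adjusted p = 0.000232), and no other of 12 CAR, PXR, Cyp2b and Cyp3a genes passed the test. The falls were in 6 Cyp2c genes, Cyp2d26, Cyp2d40 and Cyp2e1, and the median of the list was -0.37. The Cyp2d26 call was lost without wild-type library 4. Cyp2c37 had 966, 1084, 947 and 589 normalised reads in the libraries labelled KO and 3189.7, 2856, 2118 and 2987 in the wild-type libraries. Cyp2c29 had 3904, 4543, 2933 and 2413 normalised reads in KO-labelled livers and 6675, 5641, 11629 and 10582 in wild-type livers. Cyp2e1, which oxidises ethanol and many solvents (ENSMUSG00000025479, chromosome 7, 140763739 to 140774987), had 46586, 60258, 57905 and 43483 normalised reads in KO-labelled livers and 80467, 100460.1, 93045 and 106129 in wild-type livers. In these 3 genes every KO-labelled liver was below every wild-type liver, at folds of 0.318, 0.406 and 0.545. Among other ethanol and acetaldehyde genes, Adh7 was at a fold of 0.535 and the aldehyde dehydrogenases Aldh1b1 and Aldh1a7 at 2.27 and 1.73. Of 24 glucuronosyltransferase and sulfotransferase genes 4 rose and 6 fell, and 2 rose without any 1 of KO libraries 2 and 4 or wild-type libraries 1, 3 and 4. Ugt1a9 rose 2.95-fold and Ugt2b35 2.18-fold, while Ugt1a5 and Sult1a1 were at folds of 0.419 and 0.575. The efflux pumps Abcc4 and Abcc5 rose 2.97-fold and 2.11-fold. Of 25 bile acid genes 4 fell, 2 without any 1 of KO library 4 and wild-type libraries 2 and 4, and the uptake transporter Slc10a1 (fold 0.637) kept its call throughout. Cyp17a1, a steroid hydroxylase and among the largest falls of well-expressed genes, had 171, 101, 110.5 and 39.6 normalised reads in the libraries labelled KO and 222, 441, 712 and 361 in the wild-type libraries. Its wild-type livers spread widely and lay above all KO-labelled livers (log2 -2.08 ± 0.48 SE, limma adjusted p = 0.0103).

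**Figure D4:**
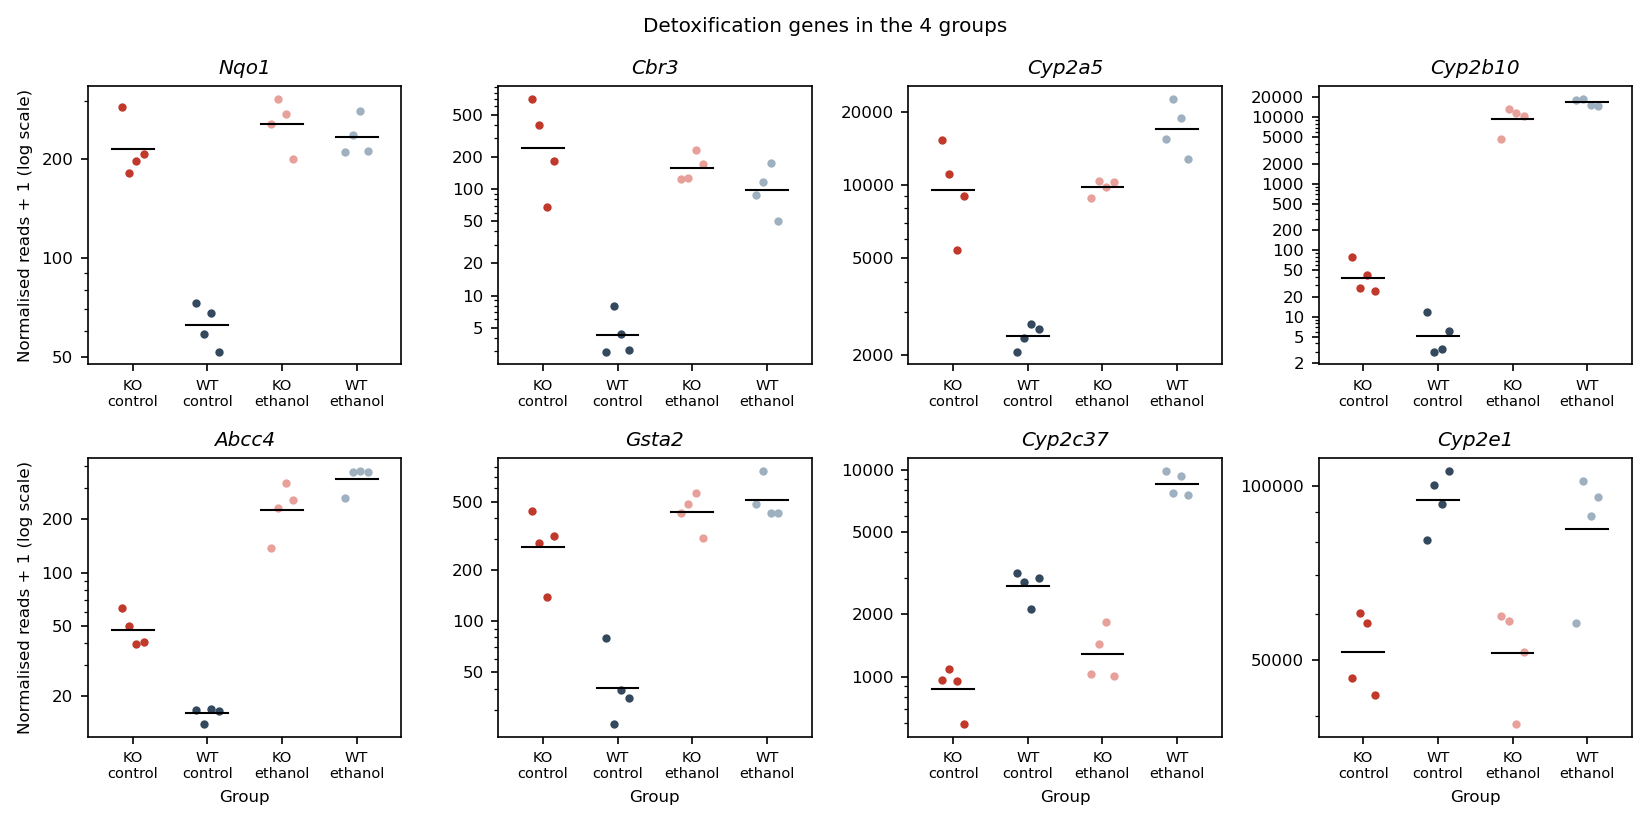
Normalised reads plus 1 (log scale) of 8 detoxification genes in each library of KO control, WT control, KO ethanol and WT ethanol livers, left to right in each panel, with a bar at the mean of the log values. Nqo1, Cbr3, Cyp2a5, Cyp2b10, Abcc4 and Gsta2 were higher by the test in KO control than in WT control livers, and none of these 6 was higher by the test in KO ethanol than in WT ethanol livers. Cyp2c37 and Cyp2e1 were lower in the libraries labelled KO on both diets.

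Lipid genes that passed the test were mostly lower, beside the background of 5.24% lower over all genes. Of 13 measured desaturases and elongases, listed for polyunsaturated fatty acids, 6 fell and 1, Elovl7, rose. Fads1, the desaturase that makes arachidonic acid (ENSMUSG00000010663, chromosome 19, 10182888 to 10196877), had 6929, 7145, 4793 and 5136 normalised reads in the libraries labelled KO and 8931, 10824, 15118 and 10105 in the wild-type libraries. Elovl2, which lengthens docosapentaenoic acid, had 6788, 6945, 5264 and 5739.8 normalised reads in KO-labelled livers and 10825, 10572, 13395 and 11514 in wild-type livers. Elovl5, which acts on shorter polyunsaturated chains, had 7019, 8549, 5032 and 7089.7 normalised reads in KO-labelled livers and 13154, 10558, 18851 and 9763 in wild-type livers. In these 3 genes every library labelled KO was below every wild-type library, at folds of 0.536, 0.533 and 0.538. Fads3, a sphingoid base desaturase that is counted on the same list, was at a fold of 0.280. Ppara, the nuclear receptor that drives fat oxidation in fasting (ENSMUSG00000022383, chromosome 15, 85734983 to 85802819), had 499, 773, 755 and 1045 normalised reads in the libraries labelled KO and 1487, 1802, 1600.5 and 1477 in the wild-type libraries. The groups did not overlap (log2 -1.09 ± 0.22 SE, limma adjusted p = 0.00431). Of 25 genes of its list 7 fell and 1, Ucp2, rose, and 3 or 4 fell without any 1 of KO libraries 3 and 4 or wild-type libraries 1, 2 and 4. The thioesterase Acot12 and Cpt1a, which gates entry of fatty acids into mitochondria, kept their calls throughout at folds of 0.709 and 0.729. Of 34 fatty acid oxidation genes 7 fell and 0 rose, and 2 to 4 fell without any 1 of KO libraries 3 and 4 or wild-type libraries 1, 3 and 4. Of 19 uptake and binding genes 6 fell and 1, Cd36, rose. Cd36, a fatty acid translocase that macrophages also carry, had 1666, 1777, 1256 and 1411 normalised reads in KO-labelled livers and 703, 485, 557 and 369.5 in wild-type livers. Vldlr, a lipoprotein receptor, had 11.4, 4.73, 5.52 and 5.40 normalised reads in KO-labelled livers and 35.5, 25.8, 17.0 and 29.1 in wild-type livers. The groups were apart in both, in opposite directions. Of 24 lipogenesis genes 3 fell, 0 without KO library 3 or wild-type library 3 and 1 without any 1 of KO libraries 1, 2 and 4 or wild-type library 1. Of 28 sterol genes 2 fell, a share near the background, Scap, the escort of SREBP (fold 0.702), and Stard4, a cholesterol carrier (fold 0.508). Pltp, which transfers phospholipid between lipoproteins, was at a fold of 0.440, and Fitm1, which partitions fat into droplets, at 0.408. Median log2 fold changes of the lists in this paragraph lay between -0.49 and -0.19, beside -0.01 over all genes.

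Several genes of the growth hormone axis were lower. Of 35 measured genes 9 fell and 2 rose, with a median log2 fold change of -0.59 against -0.01 over all genes. The backgrounds were 5.24% lower and 6.4% higher, and the share that rose (5.71%) was near its background. Ghr, the receptor (ENSMUSG00000055737, chromosome 15, 3317760 to 3583492), had 4810.4, 6186, 4319 and 5582 normalised reads in the libraries labelled KO and 8324, 8561, 8451 and 9745 in the wild-type libraries. Igfbp2, a carrier of insulin-like growth factors, had 3753, 2669, 3639.7 and 3934 normalised reads in KO-labelled livers and 6233, 5076, 6023 and 9208 in wild-type livers. Prlr, the related prolactin receptor, had 606, 651, 845 and 486 normalised reads in KO-labelled livers and 1105, 1649, 1206 and 874 in wild-type livers. The groups did not overlap in these 3 genes, at folds of 0.591, 0.535 and 0.540. Igf1, the main circulating effector, had 5721, 6497, 6094 and 6097 normalised reads in KO-labelled livers and 8879, 9256, 9294 and 9187 in wild-type livers. Its libraries lay tightly around 2 levels (log2 -0.59 ± 0.14 SE, limma adjusted p = 0.0120). Mup12, of the urinary protein genes that growth hormone pulses raise, was at a fold of 0.202, with close copies that make its count uncertain. Of 30 pericentral markers 10 fell, 6 without wild-type library 3, and 4 rose, 2 without any 1 of KO libraries 1, 2 and 4 or wild-type libraries 1 and 4. Slc1a2, the glutamate transporter next to the central vein, had 1362, 1031, 1298 and 871 normalised reads in the libraries labelled KO and 3034, 4167, 2410.4 and 3046 in the wild-type libraries. It was lower in every KO-labelled liver (log2 -1.47 ± 0.17 SE, limma adjusted p = 1.69e-05). Rgn, a calcium-binding lactonase, and Lhpp, a histidine phosphatase, were at folds of 0.669 and 0.506, while Rhbg, an ammonia transporter, rose 3.62-fold. The pericentral count shares Cyp2e1, Cyp2c29, Cyp2c37 and Cyp2a5 with that of the P450 genes. Of 20 periportal markers 3 rose and 2 fell. The pericentral median was -0.32 and the periportal median 0.03.

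**Figure D5:**
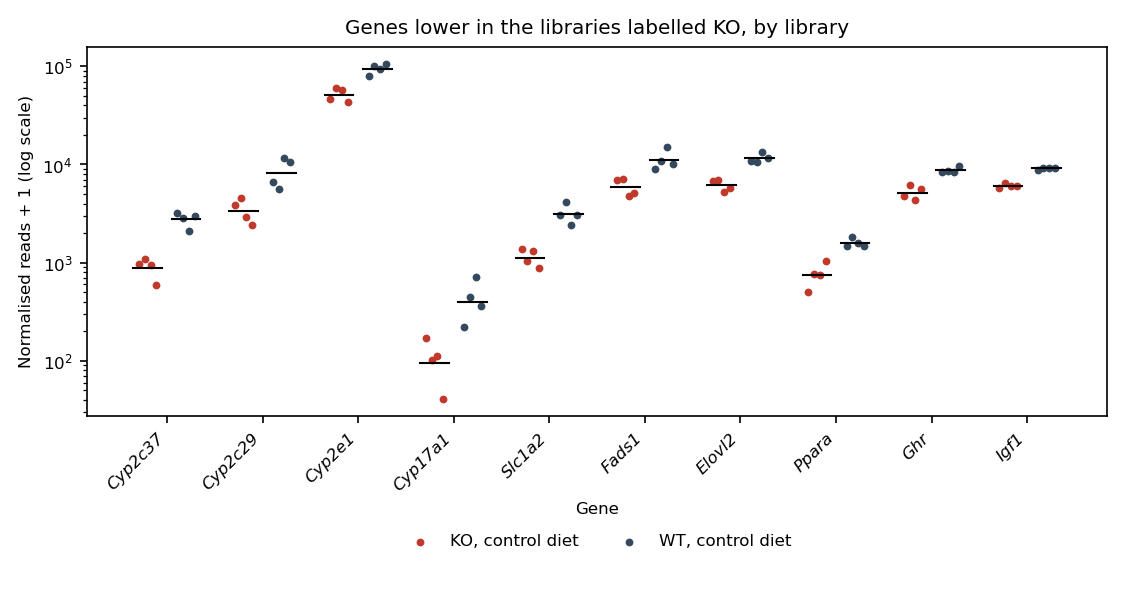
Normalised reads plus 1 (log scale) of 10 genes that were lower in the libraries labelled KO, in each control-diet library, the 4 libraries labelled KO to the left of the 4 wild-type libraries for each gene, with a bar at the mean of the log values. The groups do not overlap in any of the 10 genes.

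Hepatocyte markers moved with these lower genes. The summed level of the 19 markers was 1681167, 1686228, 1745726 and 1685672 normalised reads in the libraries labelled KO and 2043319.8, 2247214, 2410930.2 and 2320879 in wild type, without overlap. The normalised totals of whole libraries did not overlap either. They were 1.13e+07 to 1.21e+07 in the libraries labelled KO and 1.26e+07 to 1.41e+07 in wild type, and the marker sums are not shares of them. Their median log2 fold change was -0.29. Of the 19, 4 fell and 0 rose, and 1 or 2 fell without any 1 of KO libraries 2, 3 and 4 or wild-type libraries 1, 3 and 4. The part of this shift in the lower genes was not tested. Secreted plasma proteins moved in both directions, beside backgrounds of 6.4% higher and 5.24% lower. Of 27 acute-phase genes 3 rose. Saa3, the serum amyloid of macrophages and epithelia, had 453, 393, 357 and 276 normalised reads in the libraries labelled KO and 40.4, 103, 24.95 and 38.4 in the wild-type libraries. Orm3, an orosomucoid with close copies, had 67.3, 94.7, 174 and 119 normalised reads in KO-labelled livers and 11.8, 9.94, 13.6 and 11.4 in wild-type livers. The groups did not overlap in either. KO library 3 had the highest mean log2 level of the acute-phase list, 12.74, against 11.35 to 11.55 in the others labelled KO. Of 30 coagulation genes 4 fell, including factor V, F5 (fold 0.621), plasma kallikrein, Klkb1 (fold 0.645), and Hrg (fold 0.739). Of 33 complement genes 5 rose and 1, C8a of the membrane attack complex (fold 0.626), fell, and 3 rose without wild-type library 4. Of 32 urea cycle and amino acid genes 6 fell, 3 without KO library 4 or any 1 of wild-type libraries 1, 3 and 4. Pigr, which carries IgA into bile, was at a fold of 0.701.

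Few nuclear genes of mitochondria passed the test, beside backgrounds of 6.4% higher and 5.24% lower over all genes. None of 36 complex I subunits and none of 39 nuclear-encoded subunits of complexes II to V did, with median log2 fold changes of -0.01 and -0.04. Of 75 mitochondrial ribosomal proteins 1 fell, of 25 genes of mitochondrial DNA replication and transcription 1 fell, of 20 import genes 1 rose, and of 18 chaperones and proteases 1 rose and 1 fell. Of 22 fission and fusion genes 1 fell, Opa1, the fusion GTPase of the inner membrane. It had 1086, 1279, 1261 and 1226 normalised reads in the libraries labelled KO and 1602, 1508, 1623 and 1691 in the wild-type libraries. The groups did not overlap (log2 -0.41 ± 0.09 SE, limma adjusted p = 0.00873). The outer-membrane fusion genes Mfn1 and Mfn2 had log2 fold changes of 0.05 and 0.09 (adjusted p = 0.729 and 0.685, limma), and the DRP1 receptors Mff and Fis1 -0.08 and 0.15 (adjusted p = 0.558 and 0.451). Of 13 transcripts of mitochondrial DNA 4 fell, none had a fold above 1, and the median log2 fold change was -0.45. The summed level of all 15 listed was 433413, 384946, 304826 and 358875 normalised reads in the libraries labelled KO and 530935, 503589, 591276 and 557756 in wild type, without overlap. The normalised totals of whole libraries did not overlap either. The complex I transcripts mt-Nd4 and mt-Nd5 had folds of 0.583 and 0.581, and mt-Cytb of complex III 0.5001. The call of mt-Co1 was lost without any 1 of KO libraries 2 and 3 or wild-type libraries 3 and 4, without a filter, with only the control-diet libraries and with the replicate block. Of 34 autophagy and mitophagy genes 1, the cargo receptor Sqstm1, rose 1.62-fold, a call lost without any 1 of KO libraries 3 and 4 or wild-type libraries 2 and 4. Of 38 lysosomal genes 10 rose and 1 fell, and 3 to 5 rose without any 1 of KO libraries 1 and 2 or wild-type libraries 1 and 4. Ctss, Cd68 and Gpnmb, which macrophages express strongly, kept their calls throughout (2.50-fold, 2.16-fold and 9.96-fold).

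Well-expressed genes were those above the median level of all genes tested, here also without overlap between groups. Of their 15 largest rises 11 are on the interferon lists, with the Ly6 list counted among these. They ran from Ly6a (31.7-fold), on the Ly6 list, to Trim30a (6.34-fold), a TRIM protein that dampens inflammatory signalling. The lists were chosen with earlier results of these data known. Their share of all well-expressed genes was not computed, so the count describes the ranking only. The other 4 were Atf3, Cyp2b10, Cdkn1a and Gsta2. The level was taken over all 16 libraries, so Cyp2b10 passed it through its ethanol libraries, while Cxcl10 and Gbp3, with larger folds and more reads on control diet, did not pass it. The 15 largest falls were of mixed function. Gabbr2, a subunit of the GABA-B receptor, had 151, 139, 105 and 129 normalised reads in the libraries labelled KO and 512, 311, 482 and 383 in the wild-type libraries. Carmil1, which regulates actin capping, had 159.6, 185, 247 and 146 normalised reads in KO-labelled livers and 498, 592, 473 and 567 in wild-type livers. Camk1d, a calmodulin-dependent kinase, had 372, 589.9, 507 and 705 normalised reads in KO-labelled livers and 1234, 1304, 1569.9 and 866 in wild-type livers. In these 3 genes every KO-labelled liver was below every wild-type liver, at folds of 0.315, 0.342 and 0.436. Depp1, a FOXO target of autophagy, was at a fold of 0.214, a call lost without KO library 3. Scd1, the desaturase that makes monounsaturated fat, was at 0.371, a call lost without KO library 3 or wild-type library 3. Rgs16, which turns off G protein signals, was at 0.253, a call lost without KO library 2 or 4 or wild-type library 3 or 4.

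In other lists the counts were small and many shares lay near the background of 6.4% higher and 5.24% lower. Of 31 genes of glucose metabolism 2 rose and 2 fell, with Hk2, a hexokinase of extrahepatic tissue, at 2.32-fold and Gys2, liver glycogen synthase, at a fold of 0.591. Of 23 drug transporters 2 rose and 3 fell, and 1 fell without any 1 of wild-type libraries 1, 3 and 4. Of 23 retinoid genes 1 rose and 2 fell, including the retinol dehydrogenase Rdh16 (fold 0.550). Of 23 apolipoprotein genes 4 fell, 2 without wild-type library 4, and of 23 lipid droplet genes 1 rose and 3 fell, 1 without KO library 1. Of 21 clock genes 3 fell, 1 without any 1 of KO library 3 and wild-type libraries 3 and 4. Of 26 iron genes 2 fell, of 28 one-carbon genes 1 fell, of 21 hepatocyte transcription factors 1 fell, and of 17 metallothionein and zinc genes 1 rose and 1 fell. Of 13 cholangiocyte markers 3 rose and 1 fell, 1 rose without KO library 4 or wild-type library 4, and the keratin Krt8 (1.72-fold) kept its call throughout. Of 5 measured dendritic cell markers 2 rose, with 9 others listed under the filter. Both are on other lists as well, Bst2, the antiviral tetherin, on the antiviral list and Irf8 on that of interferon signalling. For Irf8 the call is that of the fit to all 16 libraries (limma adjusted p = 0.0418), and its stability is not described. The medians of these lists lay between -0.26 and 0.42, with the dendritic cell markers the highest.

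The genotype effect itself was then compared between diets, as the log2 difference of KO and WT on control diet minus that after ethanol. It differed for 46 of 13256 genes (0.347%), 27 with a positive and 19 with a negative difference, and 1772 genes had an unadjusted p under 0.05. With DESeq2 the count was 265, with edgeR's quasi-likelihood test 30 and without the trend 16. The count was 8 to 29 without any 1 of KO libraries 1, 2 and 4 or wild-type libraries 1, 2 and 4 on control diet, or of KO libraries 1, 2 and 4 or wild-type libraries 1 and 2 after ethanol, and 215 without wild-type library 3 after ethanol. In every fit that left out 1 of the 16 libraries 8 genes kept the call, Nqo1, Cbr3, Cyp2a5, Cyp2b10, Abcc4, Dusp8, Raet1d and Ifi27. After ethanol Cyp2a5 had 8842, 10368, 9792 and 10272 normalised reads in KO-labelled livers and 15471, 22664, 18875 and 12750.2 in wild-type livers. It was thus lower with the KO label after ethanol (log2 -0.80 ± 0.24 SE, limma adjusted p = 0.0399) and higher on control diet, and the genotype effects differed by 2.79 ± 0.33 SE, limma adjusted p = 0.00264. Nqo1 had 254, 303, 272 and 198 normalised reads in KO-labelled livers and 209, 235, 279 and 211 in wild-type livers after ethanol. Those groups overlapped, and its genotype effects differed by 1.65 ± 0.24 SE, limma adjusted p = 0.0105. Cbr3 had 123, 126, 230.4 and 172 normalised reads in KO-labelled livers and 87.2, 117, 173 and 49.5 in wild-type livers after ethanol, a difference of 5.15 ± 0.78 SE, limma adjusted p = 0.0116. Cyp2b10 had 4731, 13265, 11816 and 10559 normalised reads in KO-labelled livers and 18007, 19134, 15604 and 15001 in wild-type livers after ethanol, a difference of 3.74 ± 0.59 SE, limma adjusted p = 0.0147. Abcc4 had 138, 231, 319 and 256 normalised reads in KO-labelled livers and 263, 368, 375 and 368 in wild-type livers after ethanol, a difference of 2.16 ± 0.31 SE, limma adjusted p = 0.0105. None of these 3 genes passed the test for the genotype after ethanol, and Cyp2b10 and Abcc4 were above their control-diet level in every ethanol library. Dusp8, a phosphatase of stress kinases, had 72.5, 36.9, 84.7 and 54.9 normalised reads in KO-labelled livers and 7.89, 9.94, 7.94 and 3.11 in wild-type livers on control diet. After ethanol it had 331, 240.1, 192 and 312 normalised reads in KO-labelled livers and 405, 297, 154 and 647 in wild-type livers. Its groups were apart on control diet and overlapped after ethanol, and the genotype effects differed by 3.30 ± 0.54 SE, limma adjusted p = 0.0163. Raet1d, a ligand of the NK receptor NKG2D, had 226, 217, 177 and 293 normalised reads in KO-labelled livers and 156, 76.5, 83.9 and 72.7 in wild-type livers on control diet. After ethanol it had 347, 382, 322 and 226 normalised reads in KO-labelled livers and 559, 562, 507 and 494 in wild-type livers. It was higher by the test with the KO label on control diet and lower after ethanol (log2 -0.75 ± 0.22 SE, limma adjusted p = 0.0341), a difference of 2.03 ± 0.30 SE, limma adjusted p = 0.0116. Ifi27, an interferon-induced mitochondrial protein, ran the other way. On control diet it had 8409, 7231, 6926 and 7274 normalised reads in KO-labelled livers and 826, 1326, 896 and 1059.8 in wild-type livers. After ethanol it had 6769, 6079, 6252 and 5432 normalised reads in KO-labelled livers and 389, 360.04, 386 and 371 in wild-type livers. The genotype was called on both diets, with the larger effect after ethanol (difference -1.14 ± 0.17 SE, limma adjusted p = 0.0116). Among the OAS, IFIT, ISG15, antiviral, GTPase and class I lists, Ifi27 and its relative Ifi27l2a were the members with a called difference between diets, and the Ifi27l2a call was lost in 2 of the fits that left out 1 library.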

How the data were processed

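Liver RNA was sequenced in 16 libraries, 4 in each of 4 groups. The deposited table holds normalised read counts, a signal that the authors made by dividing the reads of each gene by 1 size factor for each library. Multiplied back, 100% of values in every library came out whole within 0.01 read. The tool that made the factors is not stated. DESeq2's size factors, computed from the recovered counts, matched them within a relative difference of 4e-06, up to a shared scale. HISAT2, HTSeq and edgeR and the build GRCm38 are listed, per the submitters' processing notes, and they name neither the strand setting nor the annotation release. Coordinates and symbols are from the GRCm38 annotation, which matched 27242 of 27288 gene IDs and left 46 without a symbol.

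Genes with a mean of at least 10 over the 16 libraries were tested on log2(value + 1) with limma 3.58.1, run in R 4.3.3, with a mean-variance trend, 4 group means over all 16 libraries and Benjamini-Hochberg adjustment at 0.05. Fold changes are on that scale and understate those of low genes. The groups are the labels' own. Depth was 11425136 to 13864862 assigned reads a library, so the precision of low genes is limited by counting. On simulated counts of 13256 genes the test recovered 62 of 100 changes of 2-fold and 96 of 100 of 4-fold, with 8 false among 166 calls. The simulation changed 200 genes and drew each gene independently, while the data gave 1544 calls, so these rates may not carry over. Dnm1l alone had an exact permutation test.

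Alternatives were other pseudocounts and filters, no trend, only the control-diet libraries, TMM scaling, edgeR 4.0.16 and DESeq2 1.42.0 on the recovered counts, a replicate block and leaving out each library in turn. The comparison and the gene lists were chosen with earlier results of these data known. Values in every library are given for at most 5 members of a list, those called with the smallest p, for the 15 largest rises and falls of well-expressed, non-overlapping genes, for the 15 smallest p of the difference between diets and for Dnm1l. No pair of libraries of 1 group agreed within sampling noise, so none was merged. Results for 1 gene are not reported here.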

Additional observations from a re-analysis of the deposited data

Results flagged for a closer look

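In 20 of 358 groups examined, the KO-labelled and the wild-type control-diet libraries of 179 named genes, 1 library stood apart from the other 3 by Dixon's ratio, the gap to the nearest library over the range of log2 values, at its 95% critical value. Chance gives about 1 in 20 groups. Wild-type library 2 was the one apart in 7 genes. It was the highest in C1qc (ratio 0.839), Ctss (0.929), Ifi27l2a (0.92), Il18bp (0.893), Psat1 (0.873) and Tnfaip3 (0.846) and the lowest in Abcc4 (0.904). In Ctss, a lysosomal protease of macrophages, it had 489 normalised reads, against 209 to 222 in the other wild-type libraries. The same library was the highest wild-type one for Irf7 and for the Kupffer cell markers. KO library 4 was the highest of the libraries labelled KO in Ifih1 (0.926), Oasl2 (0.899) and Slfn8 (0.945), and KO library 3 was the lowest in Cxcl9 (0.849) and Ube2l6 (0.854) and the highest in Hrg (0.835). KO library 2 was the highest in Fitm1 (0.858) and KO library 1 in Vldlr (0.833). Among the other wild-type libraries, library 1 was the highest in Hspb1 (0.84) and the lowest in Igtp (0.897), library 3 the highest in Pltp (0.938), and library 4 the lowest in Gsdmd (0.884) and the highest in Slc7a11 (1), the single wild-type library with a read of it.

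The genotype effect differed between diets by the limma test for 20 named genes, given as the log2 effect on control diet minus that after ethanol. Besides the 8 genes that kept this call with any 1 library left out, Abcc4 (2.16), Cbr3 (5.15), Cyp2a5 (2.79), Cyp2b10 (3.74), Dusp8 (3.30), Nqo1 (1.65), Raet1d (2.03) and Ifi27 (-1.14), the difference was positive for Cdkn1a (3.53), Ephx1 (1.37), Gsta2 (2.97), Gstm3 (2.66), Ier5 (1.33), Orm3 (2.57) and Ugt2b35 (1.27). It was negative for Elovl2 (-1.31), Fads3 (-2.86), Ifi27l2a (-1.89), Pltp (-1.89) and Ppara (-1.57). Each of these 12 lost the call in at least 1 of the fits that left out 1 library. Ppara averaged 768 ± 223 normalised reads in KO livers on control diet, against 1592 ± 151 in wild-type livers on control diet, and 772 ± 133 in KO livers after ethanol, against 572 ± 199 in wild-type livers after ethanol (SD, n = 4 each).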

How the results depend on the processing

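The count of genes called between KO and WT on control diet was 922 to 1360 when 1 control-diet library was left out, with 547 to 773 higher and 375 to 599 lower, and within 1.5 times its value under every other alternative, from 1244 with a filter at a mean of 50 to 1924 with DESeq2. With TMM scaling 927 genes were higher and 623 lower. No called gene turned its sign. The count for the difference between diets was 46, against 265 with DESeq2, 30 with edgeR's quasi-likelihood test, 16 without the trend and 8 to 215 with 1 library left out; the cause was not tested. Dnm1l had log2 fold changes of -0.111 to 0.0328 with 1 library left out, the positive value without KO library 3. Ifitm1, not called, had -0.115, without KO library 1, to 0.186.

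With the replicate block, 1430 genes were called between KO and WT and 24 for the difference between diets. The same-numbered libraries correlated at 0.035, -0.021, 0.031 and -0.075 in their deviations from the group means, and the labels tie no number to a pair. Under the block Gdf15 passed the test (adjusted p = 0.0388) and mt-Co1 did not (0.0536). Of the counts of list members, 236 of 1280 values with 1 library left out moved by over 1.5 times, and 135 of 1598 under the other alternatives. Genes with few reads are limited by depth.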
